A study of Mus musculus with 19 samples.

Results

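Myoblasts, the precursor cells of skeletal muscle, stick to each other and then merge into multinucleate myotubes, and 9 genes whose products act in these steps are described here. They were chosen by name for their known roles, with earlier results of these data already seen: Mymk, Mymx, Cdh15, Cdh2, Jam2, Jam3, Ncam1, Dock1 and Myof. They are 9 of 35598 genes with a deposited transcript, and all 9 were among the 15123 genes that passed the filter on low counts. RNA was sequenced from primary myoblasts of mouse hind-limb muscle in 19 libraries, with either a wild-type (WT) or a Glud1KO genotype label. Glud1 encodes glutamate dehydrogenase, a mitochondrial enzyme that converts glutamate to alpha-ketoglutarate. Dividing myoblasts kept in growth medium were taken at 24 h (3 WT and 3 Glud1KO-labelled libraries). Differentiated myotubes were taken at 48 h (3 and 2 libraries) and fused myotubes at 72 h (4 and 4 libraries). The sources used here state neither how Glud1 was disrupted nor whether the biological replicates are separate animals or separate cultures, so the p-values measure only the spread between these libraries.

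Myomaker, the product of Mymk, is a membrane protein with several membrane-spanning segments, and it is needed for the outer membrane leaflets of neighbouring cells to mix. Myomixer (also called myomerger or minion), the product of Mymx, is a very short membrane protein that completes the merger by opening a fusion pore. Before that, the cadherins, junctional adhesion molecules and NCAM hold cells together, Dock1 activates the small GTPase Rac to remodel actin at the contact, and myoferlin binds phospholipids at sites of membrane merging and repair.

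The protein of Mymx is so short that its whole coding sequence can be shown, and it is identical in all 4 Mymx transcripts of the files, so that the level of the gene is the level of this one reading frame. The Ncam1 and Myof lines show the exons that tell apart the transcripts with the widest shifts in share between WT stages. All are on the minus strand of GRCm38 and were read from GENCODE M21 transcripts. Capitals mark the start and stop codons in the Mymx line. In the other lines they mark exon bases that one form has and the other lacks, and the lower-case letters of the Myof line are 24 neighbouring transcript bases on each side. The Mymx frame lies at chr17:45601417-45601671 and holds 84 codons before the stop. The coding part of the last exon of Ncam1-201 lies at chr9:49517506-49517582, and it encodes the signal for a lipid (GPI) anchor. Exon 16 of Ncam1-204 lies at chr9:49509705-49509912, and this exon, which encodes the membrane-spanning segment, is also in Ncam1-202 and Ncam1-205. Exon 17 of Myof-211, at chr19:37969907-37969945, has 39 bases, a whole number of codons, and is absent from Myof-201.
Mymx coding sequence: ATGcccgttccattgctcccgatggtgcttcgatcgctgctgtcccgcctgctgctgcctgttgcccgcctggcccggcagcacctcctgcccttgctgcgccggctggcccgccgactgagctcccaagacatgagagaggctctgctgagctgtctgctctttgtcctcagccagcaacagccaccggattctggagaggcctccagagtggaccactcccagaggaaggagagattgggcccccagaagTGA
Ncam1-201 last exon, coding part: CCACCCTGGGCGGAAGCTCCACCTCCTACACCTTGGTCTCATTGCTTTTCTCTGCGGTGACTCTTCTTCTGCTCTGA
Ncam1-204 exon 16: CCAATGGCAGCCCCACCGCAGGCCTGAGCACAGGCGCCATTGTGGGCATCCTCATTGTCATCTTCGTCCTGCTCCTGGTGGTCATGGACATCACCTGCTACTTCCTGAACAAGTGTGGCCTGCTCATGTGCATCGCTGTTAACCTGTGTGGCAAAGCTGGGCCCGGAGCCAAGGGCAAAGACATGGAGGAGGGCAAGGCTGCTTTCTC
Myof-211 exon 17: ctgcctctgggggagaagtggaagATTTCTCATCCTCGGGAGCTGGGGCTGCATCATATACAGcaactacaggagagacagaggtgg

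Library totals ranged from 16168131 to 30742634 estimated counts, and replicates of a group were close, with a common biological coefficient of variation of 4.03%. Levels are given as CPM, scaled counts after TMM normalisation, which sets libraries to a common size. As a check of the labels, Glud1 CPM overlapped between them in myoblasts, at 184 to 192 CPM in WT and 185 to 190 CPM in Glud1KO-labelled libraries. Per length, Glud1 was lower under the Glud1KO label, at 136 to 142 TPM against 163 to 175 TPM in myoblasts, and the TPM ranges of the labels were apart at the other stages too. The names of the deposited files carry KO for both labels and KOT for the Glud1KO label, which differs from the genotype labels, and the labels were followed here. Summed muscle markers (Pax7, Myf5, Myod1, Myog, Des, Acta1, Ckm and Myh3) were present in every group, at 1883 to 2513 CPM in myoblasts and 31467 to 37941 CPM in myotubes. Markers of endothelial cells, leukocytes and Schwann cells summed to at most 2.74 CPM in any library. The fibroblast markers reached at most 8.62 CPM, and the pericyte and smooth muscle markers reached 42.6 CPM in myoblasts, nearly all of it Rgs5. In bulk RNA such as this, fewer cells of a type and less RNA per cell cannot be told apart.

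In the WT-labelled libraries, differentiation raised 7 of the 9 genes and lowered the other two, and the step from differentiated to fused myotubes lowered 8 of 9. A gene was called changed at an adjusted p under 0.05 in edgeR's quasi-likelihood test. By that rule 85.0% of all tested genes changed between WT myoblasts and differentiated myotubes, and 75.1% between differentiated and fused myotubes, so a call here is the usual outcome, and the sizes carry the description. Of all tested genes 42.4% rose and 42.6% fell in the first step, and 37.4% and 37.7% in the second. The groups did not overlap in CPM for 85.1% of all genes in the first step and 71.6% in the second. The median log2 change of the 9 genes was 1.69 in the first step, against 0.02 over all tested genes, and -0.82 in the second, against -0.01. Scaling by library size alone moved the median of all genes by more than 0.1, to -0.23 in the first step and -0.33 from myoblasts to fused myotubes, and to -0.31 and -0.35 under the Glud1KO label.

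Mymk (ENSMUSG00000009214.9, chr2:27061636-27072179, GRCm38) encodes the fusogen myomaker. Its RNA stood at 62.7, 57.7 and 64.8 CPM in the 3 WT myoblast libraries. It stood at 1660, 1754 and 1828 CPM in differentiated myotubes and at 1635, 1729, 1761 and 1869 CPM in fused myotubes. Every myotube library was far above every myoblast library, while both kinds of myotube overlapped. The rise was 28.3-fold, a log2 change of 4.82 ± 0.07 (SE; edgeR adjusted p = 4.28e-29), and larger in size than 95.5% of all tested changes of that step. From differentiated to fused myotubes Mymk changed by 0.00 ± 0.05 (edgeR adjusted p = 0.99), and under 10 of 15 alternatives this value was negative, so it has no direction. Mymk was the only one of the 9 genes not called in that step.

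Mymx (ENSMUSG00000079471.4, chr17:45600971-45602102) encodes the fusion-pore protein myomixer. Its RNA was scarce in WT myoblasts, at 2.85, 2.81 and 2.57 CPM, where the library with the fewest held 65 counts of it. It reached 71.8, 72.1 and 69.8 CPM in differentiated myotubes and then stood at 26.2, 24.4, 27.8 and 32.4 CPM in fused myotubes. The 3 stages did not overlap. The rise was 26.0-fold (log2 4.70 ± 0.10, SE; edgeR adjusted p = 4.46e-25) and the later fall 2.55-fold (log2 -1.35 ± 0.07, SE; edgeR adjusted p = 2.94e-16). Both fusogens thus rose to a like extent, and between differentiated and fused myotubes Mymx fell while Mymk held its level.

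**Figure D1:**
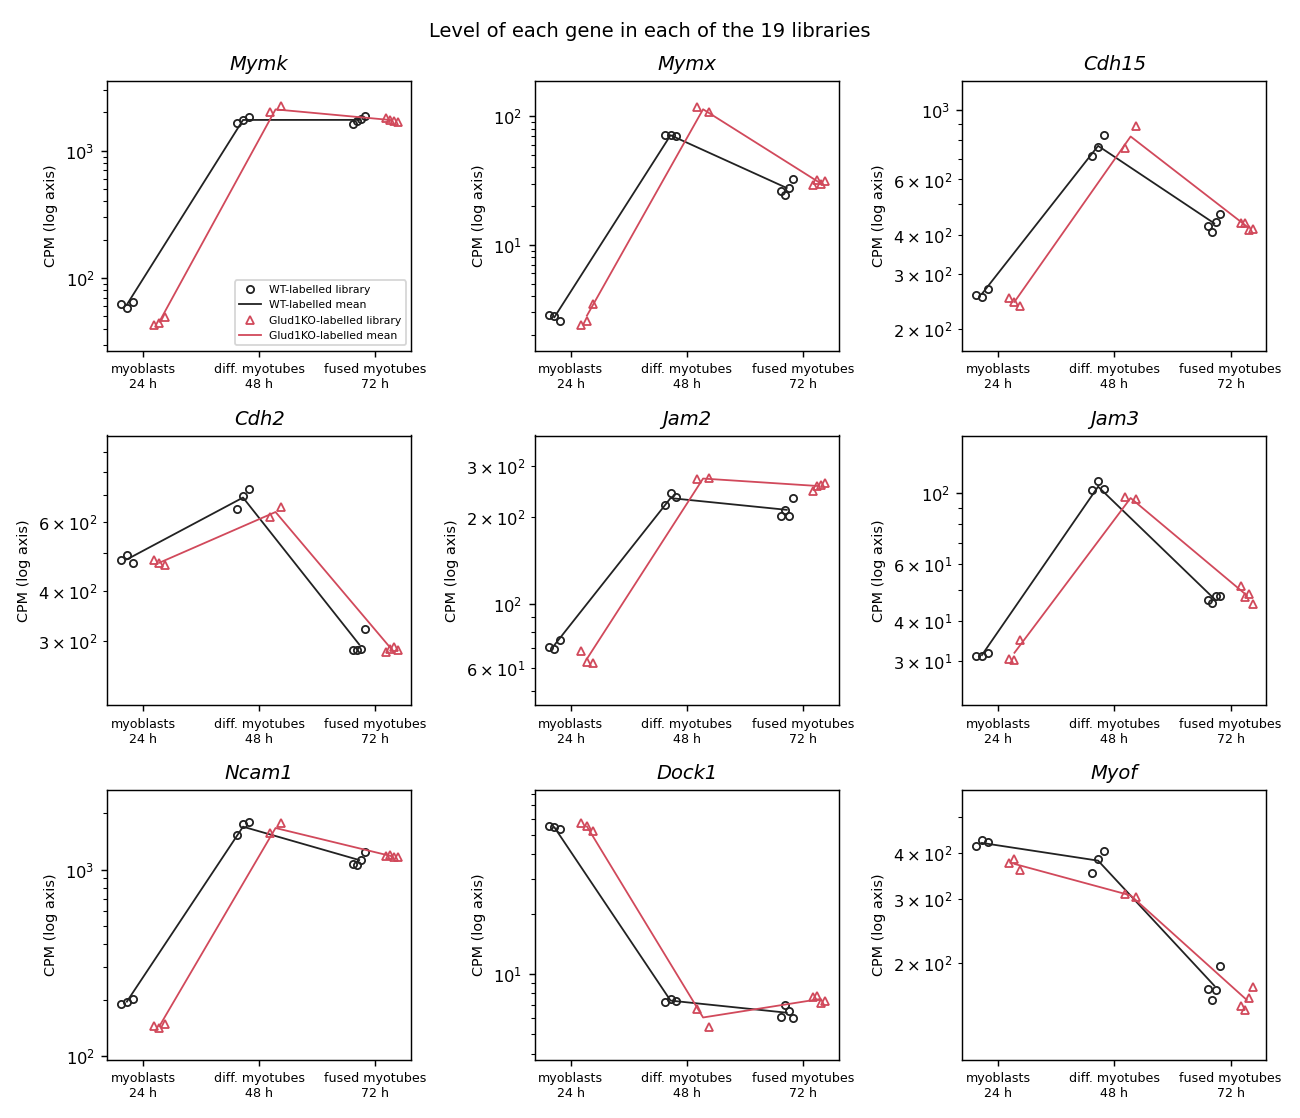
CPM of the 9 genes on a logarithmic axis in each of the 19 libraries by stage, with circles for WT and triangles for Glud1KO-labelled libraries and lines through the group means. Mymk goes from 57.7 to 64.8 CPM in WT myoblasts to 1635 CPM or more in both kinds of WT myotube, Mymx peaks in differentiated myotubes, and Dock1 drops from 53.6 to 55.0 CPM in WT myoblasts to 7.53 CPM or less.

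Of the cadherins, which join cells through calcium-dependent contacts, Cdh15 (M-cadherin; ENSMUSG00000031962.6, chr8:122847966-122867397) moved more than Cdh2 (N-cadherin; ENSMUSG00000024304.14, chr18:16588877-16809246) on differentiation. Cdh15 was at 256, 252 and 267 CPM in WT myoblasts, 714, 760 and 832 CPM in differentiated myotubes, and 426, 408, 438 and 466 CPM in fused myotubes. Its 3 stages were apart, with a 2.97-fold rise (log2 1.57 ± 0.06, SE; edgeR adjusted p = 1.44e-19) and a 1.77-fold fall (log2 -0.82 ± 0.05, SE; edgeR adjusted p = 9.19e-14). Cdh2 was at 479, 495 and 471 CPM, then 647, 698 and 728 CPM, then 284, 283, 285 and 321 CPM. It rose 1.43-fold and fell 2.35-fold (edgeR adjusted p = 4.26e-11 and 2.03e-19), and it ended below its myoblast level by a log2 change of -0.71 ± 0.04 (SE; edgeR adjusted p = 1.02e-14). Cdh15 ended above its own myoblast level, at a log2 change of 0.75 ± 0.05 (SE; edgeR adjusted p = 5.73e-13). Of 7 tested cadherins and catenins outside the 9 genes, 4 rose and 3 fell on WT differentiation. Jup, the catenin plakoglobin, rose from a mean of 25.3 to 63.9 CPM, and Cdh11, a cadherin of mesenchymal cells, fell from 71.1 to 34.8 CPM. The median of these 7 was 0.15, against 0.02 over all genes.

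Jam2 (ENSMUSG00000053062.16, chr16:84774123-84825928) and Jam3 (ENSMUSG00000031990.15, chr9:27097384-27155421) encode junctional adhesion molecules that bind each other across the cell contact, and their courses differed after differentiation. Jam2 stood at 71.0, 69.9 and 74.8 CPM in WT myoblasts, 219, 243 and 235 CPM in differentiated and 201, 212, 202 and 232 CPM in fused myotubes. Myoblasts were apart from the rest, and differentiated and fused myotubes overlapped. Jam3 stood at 31.0, 31.1 and 31.7 CPM, then 102, 109 and 103 CPM, then 46.4, 45.3, 47.9 and 47.6 CPM, with no overlap between stages. Both rose by a similar factor, 3.23-fold for Jam2 and 3.34-fold for Jam3 (edgeR adjusted p = 2.01e-21 and 2.68e-22). Between differentiated and fused myotubes Jam3 fell 2.23-fold (edgeR adjusted p = 1.5e-18). Jam2 fell by 0.13 ± 0.05 on the log2 scale (SE; edgeR adjusted p = 0.010), a call that was lost with an effective-length offset (-0.05, adjusted p = 0.47) and without replicate 2 of the WT differentiated myotubes (-0.10, adjusted p = 0.069). Jam3 shares exon positions with the antisense gene Gm48796, to which a mean of 4.89 estimated counts per library was assigned.

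Ncam1 (ENSMUSG00000039542.16, chr9:49502136-49798925) encodes the neural cell adhesion molecule, an immunoglobulin-type receptor on regenerating and newly formed muscle fibres. Its WT values were 191, 195 and 203 CPM in myoblasts, 1529, 1755 and 1808 CPM in differentiated and 1072, 1056, 1127 and 1246 CPM in fused myotubes. No stages overlapped. The rise was 8.65-fold (log2 3.11 ± 0.06, SE; edgeR adjusted p = 2.28e-25) and the fall 1.51-fold (log2 -0.59 ± 0.05, SE; edgeR adjusted p = 1.68e-10). Among 7 tested partners of the JAM and NCAM proteins, 4 rose and 2 fell on WT differentiation, with a median of 0.48 against 0.02 over all genes. The larger of the called rises was that of St8sia2, a sialyltransferase that adds polysialic acid to NCAM, from a mean of 84.7 to 742 CPM (log2 3.13 ± 0.06, SE; edgeR adjusted p = 5.64e-26). St8sia4, the other polysialyltransferase, fell from 10.2 to 6.05 CPM and then rose to 26.2 CPM in fused myotubes (log2 2.11 ± 0.09, SE; edgeR adjusted p = 9.09e-18). In that later step St8sia2 fell to 486 CPM. Of the 7 partners 5 fell and 2 rose there, with a median of -0.50 against -0.01 over all genes.

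Dock1 (ENSMUSG00000058325.6, chr7:134670654-135173639), the gene of the Rac activator, went the other way. It stood at 55.0, 54.4 and 53.6 CPM in WT myoblasts, 7.26, 7.53 and 7.32 CPM in differentiated myotubes and 6.07, 6.98, 6.54 and 6.06 CPM in fused myotubes. Myoblasts were above all myotubes, and the myotube stages were close to each other without overlap. The fall was 7.36-fold (log2 -2.88 ± 0.06, SE; edgeR adjusted p = 4.05e-25). The further change of -0.21 ± 0.08 (SE; edgeR adjusted p = 0.023) missed the threshold in 5 of 15 alternatives. It was -0.10 with an effective-length offset (adjusted p = 0.43), and the others included those without replicate 2 of the WT differentiated myotubes (adjusted p = 0.059), without replicate 1 of the WT fused myotubes (0.067) and without their replicate 4 (0.079). All 15 listed genes of Dock1 and actin signalling were tested, and on WT differentiation 11 fell and 4 rose, with a median of -0.71 against 0.02 over all genes. The farthest were Wipf1, which binds the actin nucleation promoters of the WASP family (98.3 to 11.7 CPM), and Trio, another GTPase activator (81.5 to 312 CPM).

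Myof (ENSMUSG00000048612.16, chr19:37899036-38043577), which encodes myoferlin, was at 416, 434 and 428 CPM in WT myoblasts, 353, 386 and 404 CPM in differentiated and 170, 158, 169 and 196 CPM in fused myotubes. The fused myotubes were well below both earlier stages, by a 2.19-fold fall from differentiated myotubes (log2 -1.13 ± 0.05, SE; edgeR adjusted p = 2.39e-16). The first step of -0.16 ± 0.06 (SE; edgeR adjusted p = 0.012) was without overlap but missed the threshold in 5 of 14 alternatives, among them the effective-length offset (-0.07, adjusted p = 0.39), the DESeq2 test (-0.12, adjusted p = 0.056) and the fit without replicate 1 of the WT differentiated myotubes (-0.10, adjusted p = 0.11). Of 21 tested genes for other fusion receptors and membrane proteins, 9 rose and 10 fell on WT differentiation, with a median of 0.06 against 0.02 over all genes. Cav3, the muscle caveolin, rose from 9.45 to 169 CPM, and Vcam1, a ligand for integrins, fell from 127 to 10.1 CPM. In the later step Boc, a co-receptor that promotes myogenic differentiation, rose from 1.59 to 15.7 CPM, and Kirrel, related to the founder-cell adhesion proteins of the fly, fell from 17.0 to 3.22 CPM.

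The Glud1KO-labelled libraries showed the same 7 rises and 2 falls on differentiation (83.7% of all tested genes were called, 41.3% rising and 42.5% falling). In the step to fused myotubes 7 of the 9 fell and Dock1 rose (70.2% of all genes called, 35.8% rising and 34.4% falling). Mymk rose 46.6-fold to differentiated myotubes and then fell 1.21-fold (log2 -0.28 ± 0.06, SE; edgeR adjusted p = 0.00012). Mymx rose 40.3-fold and fell 3.71-fold (edgeR adjusted p = 2.04e-26 and 1.81e-18). Ncam1 rose 11.5-fold and fell 1.42-fold (edgeR adjusted p = 6.45e-26 and 4.41e-08). Cdh15 rose 3.38-fold and fell 1.94-fold (edgeR adjusted p = 7.1e-20 and 5.52e-14), and Cdh2 rose 1.34-fold and fell 2.23-fold (edgeR adjusted p = 1.67e-08 and 1.5e-17). Jam3 rose 3.03-fold and fell 2.01-fold (edgeR adjusted p = 1.53e-20 and 9.84e-16). Myof fell in both steps, by 1.22-fold and then 1.93-fold (edgeR adjusted p = 0.00026 and 2.25e-13). Dock1 fell 9.04-fold on differentiation (edgeR adjusted p = 1.05e-23). Its later rise of 0.30 ± 0.10 on the log2 scale (SE; edgeR adjusted p = 0.012) was lost in 4 of 14 alternatives, including the effective-length offset (0.23, adjusted p = 0.13), the DESeq2 test (0.26, adjusted p = 0.054) and the fit without Glud1KO differentiated replicate 2 (0.17, adjusted p = 0.31), which leaves 1 library in that group. Jam2 rose 4.22-fold on differentiation (edgeR adjusted p = 1.17e-22) and changed by -0.09 ± 0.05 in the later step (SE; edgeR adjusted p = 0.14), and 5 alternatives called this fall. From myoblasts to fused myotubes, 6 genes ended higher and 3 (Cdh2, Dock1 and Myof) lower under each label, where 85.5% of all genes were called under WT (42.2% higher, 43.4% lower) and 87.2% under Glud1KO (42.7% higher, 44.5% lower).

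The order of the 9 genes by abundance was read on the TPM scale, which divides by transcript length. In WT myoblasts Cdh2 led at 231 ± 8.29 TPM (SD, n = 3), followed by Myof, Cdh15, Ncam1, Mymk, Jam2, Jam3, Dock1 and finally Mymx at 5.64 ± 0.305 TPM (SD, n = 3), and no neighbours in this order overlapped. In WT differentiated myotubes Mymk led at 1693 ± 81.2 TPM (SD, n = 3), ahead of Ncam1 at 775 ± 68.2 TPM, and Dock1 was lowest at 1.86 ± 0.197 TPM. The pairs Cdh2 and Cdh15, and Jam3 and Myof, overlapped there. In WT fused myotubes Mymk at 1550 ± 63.7 TPM (SD, n = 4) and Ncam1 at 556 ± 34.1 TPM again led, and Mymx (46.8 ± 5.38 TPM), Jam3 (40.3 ± 2.32 TPM) and Myof (37.8 ± 3.51 TPM) overlapped in sequence. Cdh2, in the fourth place at 111 to 127 TPM, overlapped Jam2 in the fifth at 90.9 to 112 TPM. Mymk thus went from the fifth place to the first, while Cdh2 went from the first to the third and then the fourth, and in both of these later places its range met that of a neighbour. Myomixer RNA was below myomaker RNA per length in every group, by means of 133 against 1693 TPM in WT and 191 against 1861 TPM in Glud1KO-labelled differentiated myotubes. In the Glud1KO-labelled groups the same genes held the first, second and last places. In their myoblasts, Myof in the second place (97.4 to 103 TPM) overlapped Cdh15 in the third (96.0 to 99.0 TPM). Cdh15 ranked above Cdh2 in both kinds of Glud1KO-labelled myotube, as it did in WT fused myotubes.

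**Figure D2:**
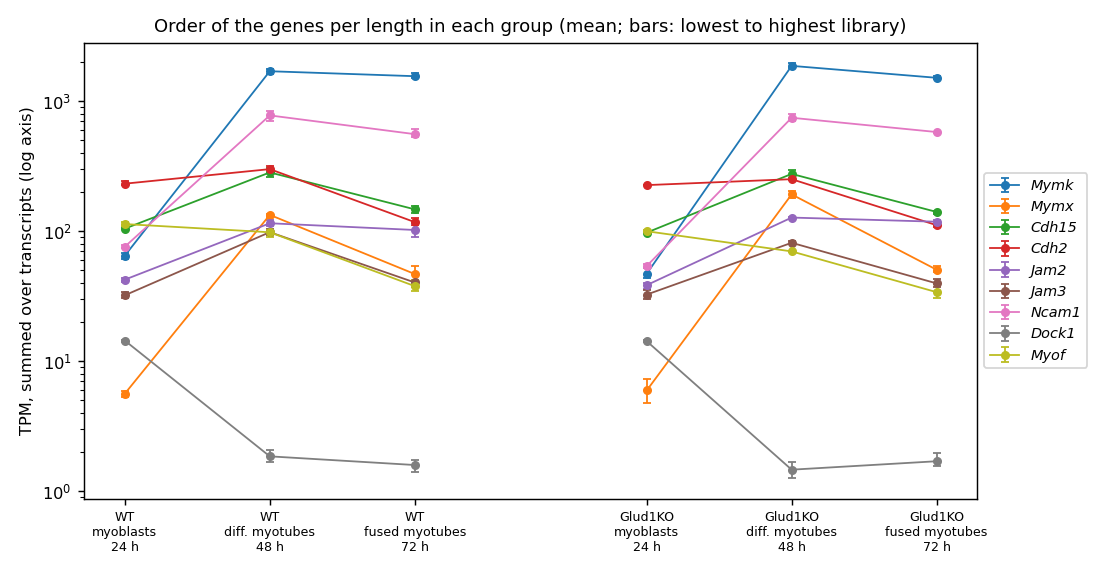
Mean TPM of each gene on a logarithmic axis for the 3 WT and the 3 Glud1KO-labelled groups, with bars from the lowest to the highest library. Mymk crosses from 64.8 TPM in WT myoblasts to the top of the range in myotubes at 1693 and 1550 TPM, and Dock1 ends lowest at 1.59 TPM in WT fused myotubes.

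The widest difference between the genotype labels was a log2 value of 0.67 (Mymx in differentiated myotubes), beside 4.82 for the rise of Mymk on WT differentiation. For Myof, Jam2 and Dock1, though, a difference between labels was larger in size than one of their own called WT stage steps. In myoblasts 3 of the 9 genes (Mymk, Ncam1 and Myof) were lower under the Glud1KO label and none was higher, against 11.6% of all tested genes called, 6.69% lower and 4.86% higher. In differentiated myotubes Mymx, Mymk and Jam2 were higher and Myof and Dock1 lower, where 25.2% of all genes were called, 11.0% higher and 14.1% lower. In fused myotubes only Jam2 was called, and it was higher, where 13.0% of all genes were called, 6.32% higher and 6.72% lower. The number of all genes called depended on the fit. It was 1747 in myoblasts, 3810 in differentiated and 1972 in fused myotubes, and 584, 2149 and 823 with an effective-length offset, which called 2, 4 and 1 of the 9 genes. In myoblasts it was 925 without WT replicate 3, 1144 and 1067 without Glud1KO replicates 1 and 3, and 2625 with only the groups compared. The labels did not overlap in CPM for 33.0% of all genes in myoblasts, 46.5% in differentiated and 15.8% in fused myotubes. In differentiated myotubes 43.9% of the calls over all genes were upward, and 27.0% with scaling by library size alone. Without replicate 2 of the Glud1KO-labelled differentiated myotubes, 3 of the 9 genes were called in place of 5. Here, and wherever that replicate is left out, the group has 1 library, which the fit assumes to vary like the libraries of the other groups. In fused myotubes the number called went from 1 to 3 without WT replicate 2, and to 2 without WT replicate 4 or Glud1KO replicate 4.

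Mymk in myoblasts stood at 42.4, 44.3 and 49.4 CPM under the Glud1KO label, against 62.7, 57.7 and 64.8 CPM in WT. All Glud1KO-labelled libraries were below all WT libraries, by 1.36-fold (log2 -0.45 ± 0.06, SE; edgeR adjusted p = 2.14e-05), and this call held in all 14 alternatives. In differentiated myotubes the order was reversed, with 1999 and 2229 CPM against 1660, 1754 and 1828 CPM, a log2 difference of 0.27 ± 0.06 (SE; edgeR adjusted p = 0.0013). Both Glud1KO-labelled libraries were above every WT library. Without Glud1KO replicate 2, with a spread taken from the other groups, the difference was 0.19 and not called (edgeR adjusted p = 0.071), with an adjusted p of 6.09e-06 to 0.071 over its 13 alternatives. In fused myotubes the Glud1KO-labelled libraries stood at 1794, 1761, 1729 and 1680 CPM, within the WT range, and the log2 difference was -0.01 ± 0.05 (SE; edgeR adjusted p = 0.96).

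Mymx was not called in myoblasts, at 2.38, 2.58 and 3.50 CPM against 2.85, 2.81 and 2.57 CPM, with overlapping labels (log2 0.03 ± 0.16, SE; edgeR adjusted p = 0.93). In differentiated myotubes it stood at 119 and 108 CPM against 71.8, 72.1 and 69.8 CPM. Both Glud1KO-labelled libraries were above all WT libraries, by 1.59-fold (log2 0.67 ± 0.07, SE; edgeR adjusted p = 4.39e-08), and the call held in all 13 alternatives. In fused myotubes the values were 29.2, 31.8, 29.8 and 31.6 CPM, inside the wide WT range of 24.4 to 32.4 CPM (log2 0.13 ± 0.07, SE; edgeR adjusted p = 0.25). Without WT replicate 4, the highest of the WT libraries, that last difference was 0.22 (edgeR adjusted p = 0.024).

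Ncam1 differed between the labels in myoblasts, at 145, 142 and 149 CPM against 191, 195 and 203 CPM. The labels did not overlap, and the Glud1KO-labelled mean was 1.35-fold lower (log2 -0.44 ± 0.06, SE; edgeR adjusted p = 1.4e-05), in all 14 alternatives. In differentiated myotubes it stood at 1567 and 1772 CPM, within the WT range, and in fused myotubes at 1178, 1201, 1173 and 1167 CPM, also within it (edgeR adjusted p = 0.84 and 0.44). The summed muscle markers in myoblasts were also lower under the Glud1KO label, at 1883 to 1941 CPM against 2256 to 2513 CPM, with 5 of the 8 called lower. Markers of later differentiation were apart, with Myh3 at 117 against 221 CPM, Acta1 at 255 against 437 CPM and Myog at 73.6 against 114 CPM, while the ranges of Pax7 (103 against 102 CPM), Myf5 (83.9 against 83.2 CPM) and Myod1 (670 against 691 CPM) overlapped. In differentiated myotubes 3 of the 8 were lower, where 14.1% of all genes were. Pax7, a marker of muscle stem cells and myoblasts, was at 5.63 against 10.6 CPM. Myf5 was at 55.2 against 63.3 CPM and Myod1 at 657 against 814 CPM, each without overlap. The ranges of Myog, Des, Acta1, Ckm and Myh3 overlapped there. In myoblasts the summed fibroblast markers were lower too, at 4.61 to 5.66 CPM against 7.81 to 8.62 CPM with Lum at 0 counts in the WT libraries. Most of that sum was Ly6a, at 3.08 against 5.89 CPM, while Pdgfra stood at 1.35 against 1.16 CPM. Only 1 of the 3 tested fibroblast markers was called lower. The summed pericyte and smooth muscle markers were also lower, at 32.3 to 34.6 CPM against 38.5 to 42.6 CPM. The part of any of these in the differences of Mymk, Ncam1 and the other genes between labels was not tested.

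Jam2 was the only one of the 9 genes called in fused myotubes, and the sign of its difference there and in differentiated myotubes was opposite to that in myoblasts. In myoblasts it stood at 68.3, 62.6 and 62.2 CPM against 71.0, 69.9 and 74.8 CPM, apart but short of the threshold (log2 -0.16 ± 0.05, SE; edgeR adjusted p = 0.053), and 8 of 14 alternatives called it lower. In differentiated myotubes it stood at 270 and 274 CPM against 219, 243 and 235 CPM (log2 0.22 ± 0.05, SE; edgeR adjusted p = 0.0027). In fused myotubes it stood at 246, 256, 257 and 263 CPM against 201, 212, 202 and 232 CPM. Every Glud1KO-labelled myotube library of a stage was above every WT library of it, by 1.21-fold at the fused stage (log2 0.27 ± 0.04, SE; edgeR adjusted p = 6.74e-05). Jam3, its binding partner, was not called at any stage, with log2 differences of 0.02, -0.12 and 0.04 (edgeR adjusted p = 0.85, 0.092 and 0.69).

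Myof was lower under the Glud1KO label in all 3 stages, and called in 2. In myoblasts it stood at 376, 385 and 359 CPM against 416, 434 and 428 CPM (log2 -0.19 ± 0.06, SE; edgeR adjusted p = 0.029). That call was lost with an effective-length offset (adjusted p = 0.24) and without WT replicate 2 (0.090), WT replicate 3 (0.088), Glud1KO replicate 1 (0.069) or Glud1KO replicate 3 (0.13). In differentiated myotubes it stood at 309 and 303 CPM against 353, 386 and 404 CPM, without overlap (log2 -0.32 ± 0.07, SE; edgeR adjusted p = 0.00063). In fused myotubes it stood at 153, 149, 160 and 172 CPM, overlapping the WT range of 158 to 196 CPM (log2 -0.13 ± 0.05, SE; edgeR adjusted p = 0.10).

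Dock1 stood at 6.68 and 5.45 CPM against 7.26, 7.53 and 7.32 CPM in differentiated myotubes (log2 -0.28 ± 0.10, SE; edgeR adjusted p = 0.049). The call was marginal: 9 of 13 alternatives lost it, among them the effective-length offset (-0.21, adjusted p = 0.34) and the DESeq2 test (-0.27, adjusted p = 0.11). Without Glud1KO replicate 2, with a spread taken from the other groups, the difference was -0.14 (edgeR adjusted p = 0.56). In fused myotubes the sign was the other way, at 7.72, 7.78, 7.15 and 7.33 CPM against 6.07, 6.98, 6.54 and 6.06 CPM, without overlap and short of the threshold (log2 0.23 ± 0.08, SE; edgeR adjusted p = 0.062). Cdh15 and Cdh2 were not called at any stage, with log2 differences between -0.12 and 0.10. For Cdh2 the difference in differentiated myotubes was -0.12 ± 0.05 (SE; edgeR adjusted p = 0.085). With scaling by library size alone, Cdh2 and Jam3 were called lower there, at -0.18 (edgeR adjusted p = 0.0051) and -0.17 (0.016).

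**Figure D3:**
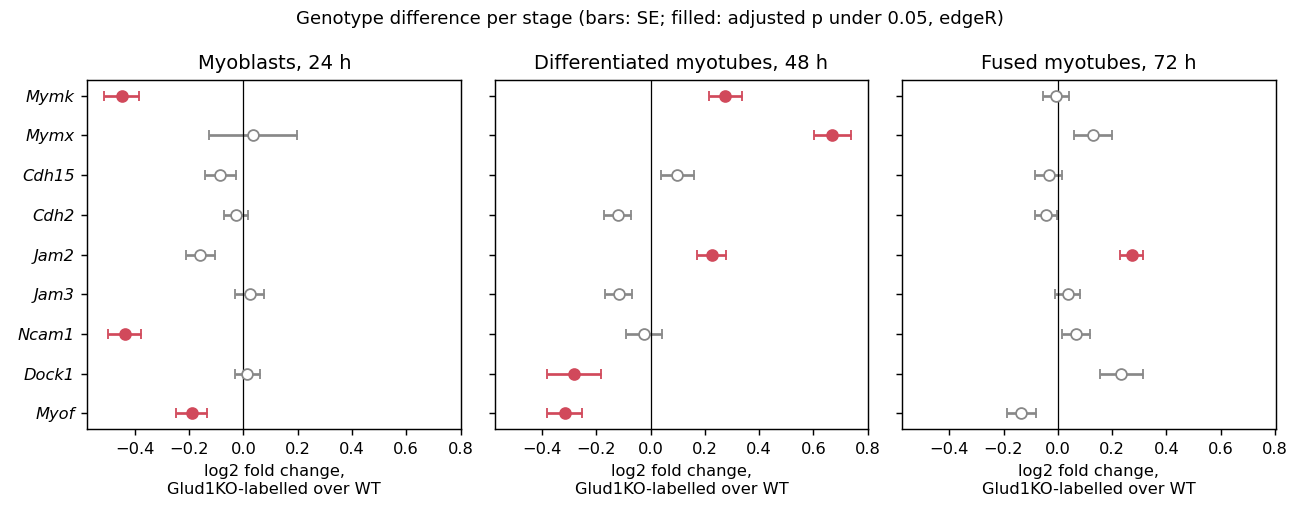
Log2 fold change of Glud1KO-labelled over WT libraries for each gene at each stage, with bars for the SE and filled points where the edgeR adjusted p is under 0.05. Mymk and Ncam1 lie at -0.45 and -0.44 in myoblasts, Mymx at 0.67 in differentiated myotubes, and Jam2 at 0.27 is the filled point in fused myotubes.

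Whether the difference between labels itself changed with stage was tested directly, as the genotype effect at one stage minus that at another. Between myoblasts and differentiated myotubes it rose for 4 of the 9 genes, where 19.1% of all genes were called, 7.78% rising and 11.3% falling. Mymk moved by 0.72 ± 0.09 (SE; edgeR adjusted p = 1.1e-06), Ncam1 by 0.41 ± 0.09 (SE; edgeR adjusted p = 0.0014) and Jam2 by 0.38 ± 0.08 (SE; edgeR adjusted p = 0.00059). Mymx moved by 0.64 ± 0.18 (SE; edgeR adjusted p = 0.012), a call lost without Glud1KO myoblast replicate 1 (0.52, adjusted p = 0.058). Between differentiated and fused myotubes it fell for Mymx, by 0.54 ± 0.10 (SE; edgeR adjusted p = 0.00037), and for Mymk, by 0.28 ± 0.08 (SE; edgeR adjusted p = 0.014), and it rose for Dock1, by 0.51 ± 0.13 (SE; edgeR adjusted p = 0.0062). In that comparison 14.8% of all genes were called, 8.27% rising and 6.53% falling. Without Glud1KO differentiated replicate 2 only Mymx was called, and the changes were -0.20 for Mymk (adjusted p = 0.15) and 0.37 for Dock1 (adjusted p = 0.14). With the effective-length offset and all libraries kept, both were again not called, at -0.28 for Mymk (adjusted p = 0.052) and 0.33 for Dock1 (adjusted p = 0.28). Between myoblasts and fused myotubes it rose for Ncam1 (0.51), Mymk (0.44) and Jam2 (0.43), where 10.3% of all genes were called, 5.75% rising and 4.55% falling, and these 3 calls held in all 22 alternatives. The changes of the genes not called lay between -0.30 (Dock1) and 0.18 (Cdh15) in the first of these comparisons, -0.13 (Cdh15) and 0.18 (Myof) in the second, and -0.01 (Cdh2) and 0.22 (Dock1) in the third. These comparisons share libraries with each other and with the stage comparisons above. With scaling by library size alone, the upward part of the calls over all genes went from 40.7% to 26.3% for the first of these comparisons and from 55.9% to 75.0% for the second.

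Between the labels the other genes of the pathway were read against the shares called over all genes. Those shares were 6.69% lower and 4.86% higher in myoblasts, 14.1% and 11.0% in differentiated, and 6.72% and 6.32% in fused myotubes. Of 21 tested fusion receptors and membrane genes, 6 were lower and none higher in myoblasts (median -0.10 against 0.01 over all genes), with the farthest fall in Il4ra, the receptor for the myotube recruiting cytokine interleukin 4, from 52.4 to 39.3 CPM (edgeR adjusted p = 8.15e-06). In differentiated myotubes 9 were lower and 1 higher (median -0.23 against -0.01). Kirrel was lowest relative to WT, at 7.39 against 17.0 CPM (log2 -1.21 ± 0.09, SE; edgeR adjusted p = 6.15e-11), and Cav3 was the higher one, at 220 against 169 CPM (edgeR adjusted p = 1.17e-05). In fused myotubes 4 were higher and none lower (median 0.05 against -0.01), led by Ehd2, a membrane-shaping ATPase, at 53.2 against 44.4 CPM (edgeR adjusted p = 0.0017). Of the 15 genes of Dock1 and actin signalling, none was called in myoblasts by edgeR, where 2 had an unadjusted p under 0.05 and DESeq2 called 1. In differentiated myotubes 4 were lower and 1 higher, where 25.2% of all genes were called, led by Wipf1 at 7.10 against 11.7 CPM (edgeR adjusted p = 2.24e-06) and Crkl, an adaptor, at 131 against 120 CPM (edgeR adjusted p = 0.026). In fused myotubes 2 were lower, with Wipf1 at 5.12 against 6.31 CPM (edgeR adjusted p = 0.024).

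Of the 7 cadherins and catenins, 3 were lower in myoblasts, led by Jup at 20.3 against 25.3 CPM (edgeR adjusted p = 0.0087). In differentiated myotubes 2 were lower and none higher, and in fused myotubes 2 were lower and 1 higher. The higher one was Cdh13, the GPI-anchored T-cadherin, which was lower under the Glud1KO label at both earlier stages. It stood at 78.5 against 86.6 CPM in myoblasts, 131 against 153 CPM in differentiated and 414 against 364 CPM in fused myotubes (edgeR adjusted p = 0.048, 0.0016 and 0.00096). Cdh11 was the farthest lower one in fused myotubes, at 10.7 against 13.8 CPM (edgeR adjusted p = 0.0051). Of the 7 JAM and NCAM partners, St8sia2 was higher under the Glud1KO label at each stage, at 96.0 against 84.7 CPM, 877 against 742 CPM and 574 against 486 CPM (edgeR adjusted p = 0.048, 0.0037 and 0.00099). The lower ones were Fyn, a kinase that signals from NCAM, in myoblasts (130 against 147 CPM, edgeR adjusted p = 0.0010) and Afdn, a junction scaffold, in differentiated myotubes (37.8 against 47.5 CPM, edgeR adjusted p = 0.00077). The myoblast call of St8sia2 was close to the threshold, and of these 7 genes DESeq2 called 1 in myoblasts where edgeR called 2.

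The change of the genotype effect with stage was also read for these lists, beside 19.1%, 14.8% and 10.3% of all genes called in the 3 comparisons in the order given above. Between myoblasts and differentiated myotubes it rose for 4 and fell for 6 of the 21 fusion receptors and membrane genes. Cav3 was the farthest rise (0.61 ± 0.11, SE; edgeR adjusted p = 0.00020) and Kirrel the farthest fall (-1.17 ± 0.10, SE; edgeR adjusted p = 1.25e-09). Between differentiated and fused myotubes it rose for 8 and fell for 1, and both of these genes turned back, Kirrel by 0.90 ± 0.15 (SE; edgeR adjusted p = 0.00016) and Cav3 by -0.24 ± 0.07 (SE; edgeR adjusted p = 0.025). Between myoblasts and fused myotubes it rose for 8 and fell for none of the 21, where 5.75% of all genes rose, with Cav3 the farthest (0.37 ± 0.10, SE; edgeR adjusted p = 0.020). Of the 15 genes of Dock1 and actin signalling it fell for 3, then rose for 2, and between myoblasts and fused myotubes it fell for 1. Wipf1 was the farthest in each, at -0.79, 0.41 and -0.38 (edgeR adjusted p = 3.49e-06, 0.039 and 0.015). Of the 7 cadherins and catenins, Cdh13 was the only one called between differentiated and fused myotubes, by 0.41 ± 0.06 (SE; edgeR adjusted p = 4.43e-05). Between myoblasts and fused myotubes Jup (0.38, edgeR adjusted p = 0.011) and Cdh13 (0.33, edgeR adjusted p = 0.00049) were called. Of the 7 JAM and NCAM partners 1 was called in each comparison, Afdn at -0.39 and then 0.38 (edgeR adjusted p = 0.0026 and 0.0098), and Fyn between myoblasts and fused myotubes at 0.21 (edgeR adjusted p = 0.0032).

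Of the 16 transcripts compared, those of Ncam1 and Myof, whose alternative exons are printed above, had the widest shifts in share between WT stages. A share is the percentage of the summed TPM of a gene. The GPI-anchored form Ncam1-201 held 38.9, 33.3 and 40.3% in the 3 WT myoblast libraries, 66.2, 65.2 and 67.9% in differentiated and 81.3, 83.2, 82.6 and 83.2% in fused myotubes. Ncam1-204, a membrane-spanning form, held 28.8, 31.3 and 28.7%, then 11.2, 11.7 and 10.1%, then 1.83, 1.46, 1.64 and 1.89%. The stages did not overlap for either form. Ncam1-202 went from 19.4 ± 2.45% (SD, n = 3) to 9.37 ± 0.431% (SD, n = 3) and 5.75 ± 0.598% (SD, n = 4), and Ncam1-205 from 10.2 ± 0.737% to 5.36 ± 0.324% and 2.90 ± 0.0501%, again without overlap. The 3 forms with the membrane-spanning exon thus lost share while the form with the GPI exon gained it. A lower share was not a lower level on differentiation, because the whole gene rose from 75.9 to 775 TPM. Ncam1-204 itself rose from 22.5 ± 1.24 to 85.3 ± 7.39 TPM (SD, n = 3 each) and then stood at 9.52 ± 1.62 TPM (SD, n = 4), below its myoblast level. Ncam1-202 stood at 14.7, 72.5 and 32.1 TPM and Ncam1-205 at 7.78, 41.6 and 16.2 TPM in the means of the 3 WT stages, and Ncam1-201 at 28.5, 515 and 459 TPM. Ncam1-207, singled out after its values were seen, was at 18.4 to 21.7 TPM in WT fused myotubes and at 0.63 TPM or less at the earlier WT stages.

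For Myof, the form with the 39-base exon, Myof-211, held 62.8, 64.4 and 64.8% in WT myoblasts, 29.2, 30.5 and 35.2% in differentiated and 31.5, 37.2, 45.4 and 34.5% in fused myotubes. Myof-201, which lacks that exon, went from 23.4 ± 0.301% (SD, n = 3) to 47.3 ± 3.91% (SD, n = 3) and 52.2 ± 4.52% (SD, n = 4). For both forms, myoblasts were apart from differentiated myotubes, and the myotube stages overlapped. The Jam genes had smaller shifts without overlap in both WT steps. Jam2-202 held 59.8 ± 0.986%, then 66.8 ± 1.76% (SD, n = 3 each), then 61.9 ± 1.34% (SD, n = 4). Jam3-202 held 2.05 ± 0.557%, then 8.44 ± 1.96% (SD, n = 3 each), then 2.44 ± 1.31% (SD, n = 4). The last of the 9 transcripts apart in the first step was Cdh2-202, which differed by less than a percentage point, at 87.2 ± 0.295% in WT myoblasts and 86.2 ± 0.657% in differentiated myotubes (SD, n = 3 each).

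In 80 comparisons of 16 transcripts, none had an adjusted p under 0.05 in the exact two-sided permutation test, 7 had an unadjusted p under 0.05, and 24 had groups that did not overlap. Over the transcripts of all tested genes, chosen by the same share rule, groups did not overlap for 29.4% in the first WT step and 18.0% in the second, where 9 and 6 of the 16 were apart. Several of these in each step were forms of Ncam1. The shares of a gene depend on each other, so these are not counts of separate shifts. In the exact permutation test 3 against 3 or 3 against 2 libraries cannot give a p below 0.10. With 4 against 3 or 4 libraries it cannot go below 0.0286. Too few of the 80 tests had a group of 4 libraries for any adjusted p to come under 0.05, whatever the shares. Between the labels, 2 of 16 transcripts were apart in myoblasts, against 10.2% of all such transcripts, a share near the background. They were Ncam1-204, at 34.6 ± 1.46% under Glud1KO against 29.6 ± 1.48% (SD, n = 3 each), and Myof-211, at 61.2 ± 0.379% against 64.0 ± 1.05% (SD, n = 3 each). In differentiated myotubes 6 of 16 were apart, against 19.9% of all, with Ncam1-201 at 70.8 ± 0.698% (SD, n = 2) against 66.4 ± 1.32% (SD, n = 3) and Ncam1-204 at 7.49 ± 0.976% against 11.0 ± 0.841%. In fused myotubes 1 of 16 was apart, Ncam1-205, against 2.51% of all. Estimated counts divide reads among forms that share most exons, so these shares depend on the authors' transcript model.

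**Figure D4:**
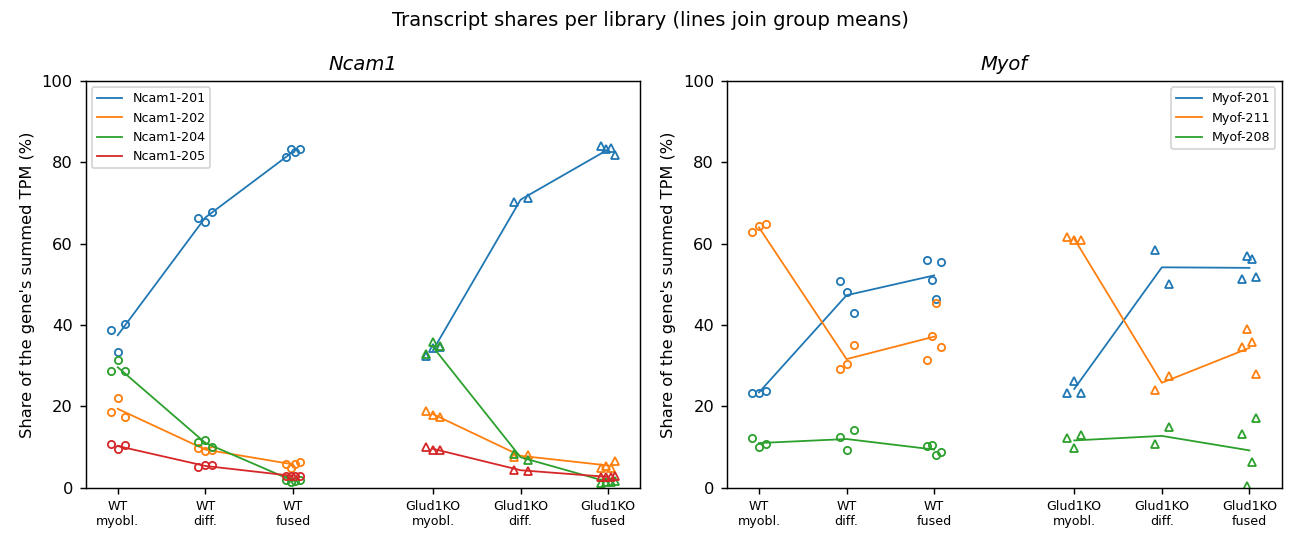
Share of the summed TPM held by the main Ncam1 transcripts (left) and Myof transcripts (right) in each library, with lines through the group means, for the 3 WT groups (circles) and the 3 Glud1KO-labelled groups (triangles). Ncam1-201 climbs from 37.5% to 82.6% in WT as Ncam1-204 goes from 29.6% to 1.70%, and Myof-211 drops from 64.0% to 31.6% on differentiation.

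The genes whose log2 CPM followed each of the 9 most closely were sought among 11510 genes over the 19 libraries, as a description with no test, since the libraries share the strong contrast between stages. Nearest to Mymk were Itgb1bp2, a muscle integrin-binding protein (Pearson r = 0.9997), Arpp21 (0.9993) and Tnnc1, slow and cardiac troponin C (0.9993). Nearest to Mymx were Arhgef6, a Rac and Cdc42 activator (0.997), Necap1 (0.996) and Arhgap24, a Rac-inactivating protein (0.995). The first neighbour was Chrnb1, a subunit of the muscle acetylcholine receptor, for Cdh15 (0.995), Tjp1 for Cdh2 (0.997), Ldlrad3 for Jam2 (0.997) and Hes6 for Jam3 (0.994). It was Lrrn1 for Ncam1 (0.999), Mcm5, a DNA replication helicase subunit, for Dock1 (0.997) and Afap1, an actin filament-associated protein, for Myof (0.989). The listed gene Vcam1 was the second nearest to Dock1 (0.997). No other of the 9 genes was among the first 3 neighbours of any of them.

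RefSeq promoter windows of GRCm38.p6, from 250 bases before to 50 after the start of a gene, were matched for 3 of the 9 genes: Cdh15, Dock1 and Myof. The E-box, CANNTG, which reads the same on both strands as a pattern and is the motif bound by MyoD and myogenin, occurred 4 times in the Cdh15 window, once for Dock1 and not for Myof. Of 32851 windows of the same length, 72.3% held at least 1 E-box and 6.49% held at least 4. Neither CAGCTG nor CACCTG, E-boxes with a defined centre that the first pattern includes, counted on both strands, was in these 3 windows, against 16.3% and 20.2% of all windows. A match to these letters is a description of the sequence and not of binding.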

How the data were processed

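Per the labels' protocols, total RNA was taken with a Qiagen micro kit and made into libraries with an Illumina TruSeq mRNA kit. The submitters' processing notes name bcl2fastq 2.20, fastp 0.20.0, kallisto 0.46.1, edgeR 3.36 and GRCm38.p6. The authors deposited, per the file headers, an estimated count and a TPM value for each of 121843 transcripts per library. Strand use in counting is not given in the sources used here. The deposited TPM values keep no depth and were summed per gene only to rank genes per length and to compute transcript shares.

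Transcripts were assigned to genes with GENCODE M21 (121018 matched, the other 825, with 0.255% to 0.507% of each library, were left out). Estimated counts were summed over 35598 genes and rounded. All 19 libraries entered 1 edgeR 4.0.16 quasi-likelihood fit in R 4.3.3 with 6 group coefficients, filterByExpr (15123 genes), TMM scaling and Benjamini-Hochberg adjustment over all tested genes, in 12 comparisons. An adjusted p under 0.05 was a call. Transcripts with a share of at least 10% in a group were compared by exact permutation tests. Library depth was 16168131 to 30742634 estimated counts, and replicate pairs differed by more than sampling noise. The fit was also run on simulated data, with no outcome given here.

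Alternatives were DESeq2 1.42.0 (size factors and test), library-size scaling, an effective-length offset, other count filters, only the groups compared, a replicate block, and leaving out each replicate. The members and the gene lists were chosen with earlier results of these data known. By rule, the text names all 9 genes in every comparison (in some only in a count or a range), the farthest called rise and fall of a pathway list in each comparison where that list is described (higher group at a mean CPM of 1 or more), the nearest genes by correlation, and Glud1. Names outside that rule (calls of at most 5 genes, and Vcam1 beside Dock1) were chosen after their values were seen. Shared exons with the antisense gene Gm11149 (a mean of 3.47 estimated counts) leave Ncam1 uncertain to that small extent.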

Additional observations from a re-analysis of the deposited data

Results flagged for a closer look

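In 18 sets of 4 fused libraries checked for a value standing far from the others (a check that marks about 1 in 20 sets by chance), 1 was marked: Cdh2 in WT replicate 4, at 320.9 CPM beside 283 to 285 CPM in the other 3 libraries. Cdh2 was not called between the labels in fused myotubes with or without it.

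The effect of the genotype label differed between stages by a direct test (edgeR interaction, 27 tests over the 9 genes) in 10 cases. From myoblasts to differentiated myotubes it moved by 0.72 (log2) for Mymk, 0.38 for Jam2 and 0.41 for Ncam1. For Mymx it moved by 0.64 in that step, not called without Glud1KO myoblast replicate 1 (edgeR adjusted p = 0.058). From differentiated to fused myotubes it moved by -0.28 for Mymk, -0.54 for Mymx and 0.51 for Dock1. From myoblasts to fused myotubes it moved by 0.44 for Mymk, 0.43 for Jam2 and 0.51 for Ncam1. Of these, the later-step changes of Mymk and Dock1 were not called without replicate 2 of the Glud1KO-labelled differentiated myotubes, which leaves 1 library there, nor with an effective-length offset (adjusted p = 0.052 and 0.28).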

How the results depend on the processing

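Of 108 log2 changes (9 genes in 12 comparisons), 71 were called, 61 of these kept direction and call in every alternative run, 10 lost the call in some and none reversed. Of the 37 not called, 12 gained a call in some alternative.

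The effective-length offset lowered the number of all genes called to 584, 2149 and 823 between labels in myoblasts, differentiated and fused myotubes, and to 1454, 981 and 665 for the changes of the genotype effect (differentiated minus myoblasts, fused minus differentiated, fused minus myoblasts), with 1 of the 9 genes called in the second of these. Fitting only the groups compared gave 2625 genes between labels in myoblasts, 5 of them among the 9. Between labels in fused myotubes 2 of the 9 were called with no count filter, with a mean CPM of at least 1 and with the replicate block. Replicates left out in turn gave 925 to 1337 genes between labels in myoblasts (925 without WT replicate 3, 1144 and 1067 without Glud1KO replicates 1 and 3). Of the 9 genes they gave 3 to 6 in differentiated myotubes, 1 to 3 in fused myotubes, and 1 to 4 for the fused minus differentiated genotype effect. The cause was not tested.

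Sign changes were found only among values not called. Mymk from WT differentiated to fused myotubes was -0.0248 with DESeq2 size factors, -0.0247 with its test, -0.0221 with a mean CPM of at least 1, -0.0241 with only the groups compared, -0.0678 by library size, -0.0054 with the offset, -0.0070 with the replicate block, and -0.042 to 0.034 with replicates left out. Dock1 in myoblasts was -0.0047 with DESeq2 size factors and its test (-0.017 to 0.049 with replicates left out). The Cdh2 effect, fused minus myoblasts, was 0.0074 and 0.0075 there (-0.035 to 0.033). With the offset, Ncam1 in differentiated myotubes was 0.071 (-0.12 to 0.064), the Jam2 effect, fused minus differentiated, -0.036 and the Jam3 effect, fused minus myoblasts, -0.028 (-0.019 to 0.081). With replicates left out, differences between labels spanned -0.15 to 0.15 for Mymx and -0.045 to 0.055 for Jam3 in myoblasts, -0.026 to 0.22 for Cdh15 in differentiated myotubes, and -0.037 to 0.028 for Mymk, -0.062 to 0.0030 for Cdh15 and -0.059 to 0.0043 for Cdh2 in fused myotubes. The Mymx effect, fused minus myoblasts, spanned -0.022 to 0.28. Differences in transcript share spanned -2.33 to 0.044 points for Ncam1-202 and -0.072 to 1.35 for Myof-201 in myoblasts, and -0.12 to 3.12 for Myof-201 in fused myotubes.

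Replicate numbers showed no strong pairing of the libraries: same-number deviations correlated at -0.090 to 0.097 (41 pairs, none over 0.1). Groups of so few libraries cannot show whether a weak pairing exists. The replicate block gained calls for Jam2 in myoblasts (adjusted p = 0.039), Myof in fused myotubes (0.044), Jam2 from Glud1KO-labelled differentiated to fused myotubes (0.037) and the Dock1 effect, differentiated minus myoblasts (0.049), and ended none of the 71. Further limits were Mymx at 65 counts in 1 myoblast library and only 2 libraries of Glud1KO-labelled differentiated myotubes.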
